A study of Mus musculus with 36 samples.

Results

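The 4 tropomyosin genes Tpm1, Tpm2, Tpm3 and Tpm4 were followed, by gene symbol, in a table of 32285 mouse genes, and all 4 were found and tested. RNA was sequenced from AT-3, a line derived from an MMTV-PyMT mouse mammary tumour, and from E0771, a line from a mouse mammary adenocarcinoma. Each line received 6 treatments for 24 h, with 3 libraries in each of the 12 groups: DMSO (the solvent), 10 µM NS11021, 10 µM BMS204352, 40 mM KCl with no compound, and 40 mM KCl with 10 µM of either compound. NS11021 is known as an opener of BK potassium channels, and BMS204352 as one of both BK and KCNQ types. Cells were grown in culture dishes and sequenced in bulk, and none of the groups was a control for the osmolarity or chloride that KCl adds, so potassium, chloride and osmolarity cannot be told apart in the KCl comparisons. The labels do not say that replicates were separate cultures, so p-values measure the spread between these libraries, which may be technical.

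Tropomyosins are coiled-coil proteins that pair up and join head to tail into a cable lying along the groove of the actin filament. In striated muscle this cable works with troponin to control myosin. In other cells, tropomyosins mark and stabilise particular actin filaments, such as stress fibres, and set how far myosin, cofilin and other binding proteins can reach them. Tropomyosin genes can make several proteins through alternative promoters and exons, which a count per gene does not separate. Tpm1 and Tpm2 are the source of most long stress-fibre isoforms in non-muscle cells and have long been studied because those isoforms are often low in transformed cells. Tpm3 and Tpm4 mainly give short cytoskeletal isoforms. Several tropomyosin genes are known targets of MRTFA (Mrtfa) and SRF (Srf), a coactivator held by free actin and the DNA-binding factor it joins, which binds the CArG box.

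On GRCm38, with GENCODE vM21 gene models, Tpm1 (ENSMUSG00000032366) lies at chr9:67022590-67049406 on the minus strand and has 16 coding transcripts. Tpm2 (ENSMUSG00000028464) lies at chr4:43514711-43523765 on the minus strand with 4, Tpm3 (ENSMUSG00000027940) at chr3:90072649-90100902 on the plus strand with 7, and Tpm4 (ENSMUSG00000031799) at chr8:72134975-72153142 on the plus strand with 1. Counts are per gene, and the sources used here do not give the exon models on which they were counted. Tpm4 shares 6.08% of its exon bases with Gm26586 on the opposite strand, which had only 2 to 20 counts per library. The near copy Tpm3-rs7 had 416 to 798 counts per library, 2.82% of the Tpm3 counts over all libraries, and reads of the 2 genes may be split uncertainly.

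Because CArG boxes bind SRF, the 250 bases before each RefSeq start (GRCm38.p6) were searched on both strands, 5 windows in all for the 4 genes. None held an exact CArG box, which occurs in 1.47% of 32851 such mouse windows. A CArG box with at most 1 mismatch occurs in 18.6% of windows, and the Tpm1 window held 2, the first Tpm3 window 1 and the second Tpm3 window 2. The Tpm2 and Tpm4 windows held none. Tpm1 also held GGAATG, the TEAD motif (12.6% of windows), and no member held the AP-1 motif TGANTCA (6.75%) or TATAAA (12.4%). The RefSeq and GENCODE starts differ. In GENCODE exons of these genes lay 193 bases of the Tpm1 window, 106 of the Tpm2 window and 41 of the Tpm4 window. The Tpm4 window lay wholly inside its gene model. GENCODE has 16, 4 and 7 distinct coding transcript starts for Tpm1, Tpm2 and Tpm3, so the windows do not cover all their promoters. The second Tpm1 match and the TEAD motif lie inside a GENCODE exon of Tpm1, while the other matches lie outside exons. These 30-base stretches are given 5′ to 3′ on the strand of the gene because they are the matches in the family, with the matching bases in capitals; a match of letters describes the window and does not show binding. The Tpm1 stretches lie at chr9:67049415-67049444, chr9:67049274-67049303 and chr9:67049250-67049279 on the minus strand, and the Tpm3 stretches at chr3:90072575-90072604, chr3:90079349-90079378 and chr3:90079454-90079483 on the plus strand, in the order given.
Tpm1 near CArG: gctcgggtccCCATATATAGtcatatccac
Tpm1 near CArG in exon: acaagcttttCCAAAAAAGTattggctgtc
Tpm1 TEAD: gctgtcctaaGGAATGcggtcgcccccctg
Tpm3 near CArG, first start: gctagaaagaCCATGTTAGGaagaagaggt
Tpm3 near CArG, second start: cacgacagcaCCATTTTAGTaaatgggaca
Tpm3 near CArG, second start: aaccccgcccCCTTTACTGGactaaggaaa

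Library totals ran from 31.2 to 52.6 M counts, so each member rested on at least 2539 counts in every library. Some replicate 3 libraries lay apart from their own group. On the first principal component of AT-3 (16.2% of variance) the BMS204352 libraries lay at 17.2, 22.1 and 65.9 and the KCl+BMS204352 libraries at −3.16, 1.31 and 30.1. On component 2 of E0771 (9.82%) replicate 3 lay apart in both groups. The BMS204352 libraries lay there at −0.512, 0.419 and −16.3, and the KCl+BMS204352 libraries at −0.179, −3.93 and −15.2. On component 3 of E0771 (5.43%) the BMS204352 libraries lay at 3.37, −1.07 and 30.2. The KCl+BMS204352 libraries lay at 6.35, 11.3 and 15.9 on component 3, where replicate 3 was no further from the rest than they were from each other. Results with BMS204352 are also given without replicate 3 of all 4 groups, called the 4 set-aside libraries here. Muscle markers, 13 genes that include the troponins, summed to 8.9 to 20.8 counts per M of library total (CPM) in AT-3 and 5.16 to 8.83 in E0771. Of 8 epithelial markers, 5 were above 1 CPM in all AT-3 libraries and 1 in all E0771 libraries, with mean sums of 1070 and 204 CPM in DMSO libraries. Of 8 fibroblast markers, 4 were above 1 CPM in all libraries of each line, with mean DMSO sums of 73.1 CPM in AT-3 and 305 in E0771. Endothelial markers summed to 1.37 to 6.23 CPM in AT-3 and 1.5 to 6.76 in E0771. Leukocyte markers summed to at most 0.493 CPM, with Tyrobp at 0 in all libraries of both lines.

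AT-3 and E0771 expressed all 4 tropomyosin genes in different proportions. Levels of different genes are compared per length, as counts per kb of merged exon per M (RPKM), as means ± SD of 3 libraries. In AT-3 with DMSO, Tpm1 was highest at 327.9 ± 32.5 RPKM, followed by Tpm4 at 188.3 ± 24.7, Tpm3 at 74.8 ± 3.19 and Tpm2 at 23 ± 1.9. Tpm1 thus made up 53.4% of the summed RPKM of the family, Tpm4 30.6%, Tpm3 12.2% and Tpm2 3.75%. In E0771 with DMSO the order was Tpm4 at 120.4 ± 2.93 RPKM, Tpm3 at 104.3 ± 2.67, Tpm1 at 54.2 ± 2.75 and Tpm2 at 34.6 ± 1.84. Their shares were 38.4%, 33.3%, 17.3% and 11.04%. The places of Tpm3 and Tpm4 depend on which length is used. With the longest coding transcript of each gene in place of merged exons, Tpm3 had 203.9 ± 8.69 and Tpm4 194.9 ± 25.5 RPKM in AT-3, a difference within the spread. With the median coding transcript they had 399.6 ± 17.0 and 194.9 ± 25.5, a difference beyond it. In E0771 the longest transcript put Tpm3 at 284.1 ± 7.27, Tpm4 at 124.7 ± 3.03 and Tpm1 at 121.5 ± 6.16 RPKM, and the median one put Tpm3 at 557.1 ± 14.3, Tpm1 at 213.9 ± 10.8 and Tpm4 at 124.7 ± 3.03. The places of Tpm1 and Tpm4 in E0771 thus depend on the length as well. That Tpm1 was highest in AT-3 and Tpm2 lowest in both lines held with all 3 lengths tried.

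The difference between lines in each gene needs no length. With DMSO, all 4 genes differed between lines in edgeR's quasi-likelihood test over all 36 libraries with Benjamini-Hochberg adjustment, and so did 74.5% of all genes tested, so a call here does not set the family apart. Tpm1 had 2279, 1886 and 2214 CPM in the AT-3 DMSO libraries and 365, 331.1 and 357.6 in those of E0771, and the groups did not overlap. It was lower in E0771 by a log2 of −2.60 ± 0.09 (SE, adjusted p = 3.34e-22), 0.165 times the AT-3 level. The median size of a line difference over all genes was 0.80 on the log2 scale. Tpm4 was also lower in E0771 (−0.65 ± 0.09, adjusted p = 1.73e-07), from 455.7, 353.1 and 435.3 CPM in AT-3 to 272.6, 263 and 260.4. Tpm2 was higher in E0771 (0.59 ± 0.10, adjusted p = 3.21e-06), at 106.6, 99.5 and 96.1 CPM against 71.8, 60.9 and 68.0. Tpm3 was higher there too (0.48 ± 0.05, adjusted p = 4.19e-10), at 649.9, 617.5 and 636 CPM against 465.9, 432.8 and 466.9. In none of the 4 genes did the DMSO libraries of the lines overlap. The share of all genes without overlap was not counted, so this does not set the family apart either. The summed CPM of the 4 genes was 3063 ± 289 in AT-3 and 1352 ± 41.5 in E0771. Fewer cells of a kind and less RNA per cell cannot be told apart in these bulk samples.

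**Figure D1:**
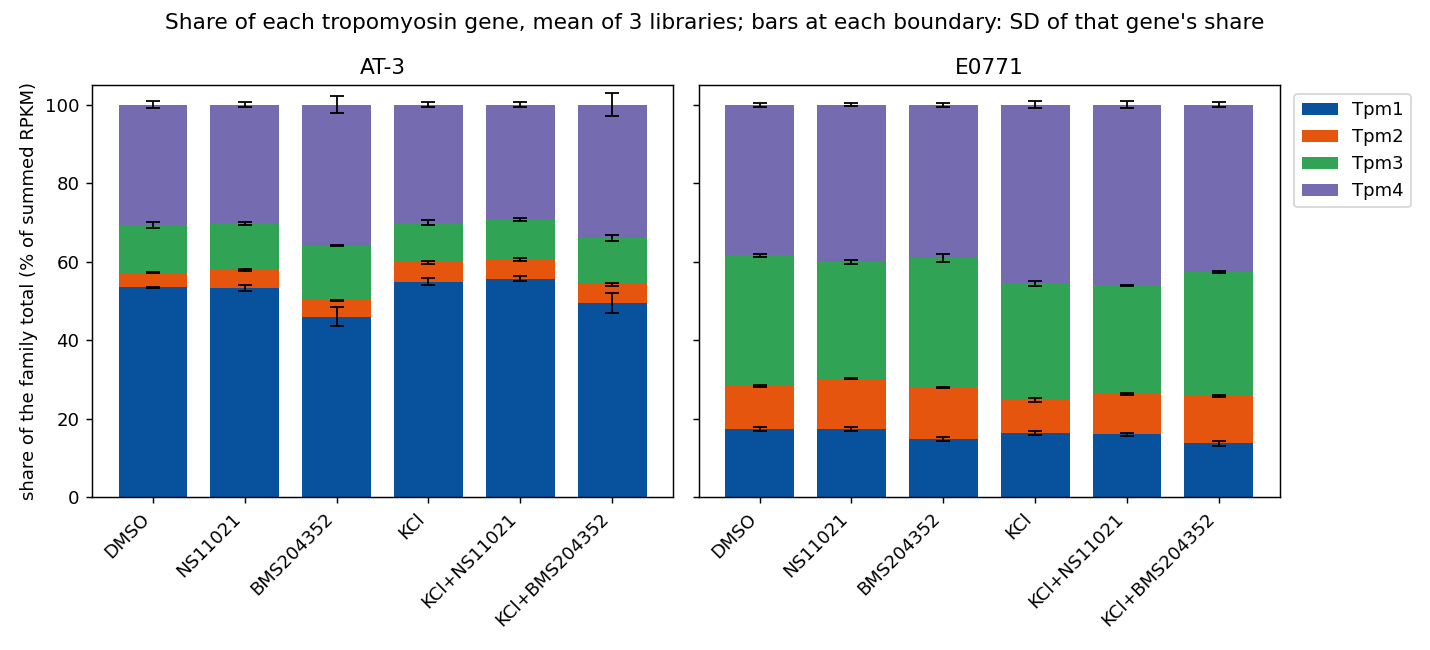
Share of each tropomyosin gene in the summed RPKM of the family (y axis, %) for the 6 treatments of each line, as the mean of 3 libraries, with the SD of the gene's share drawn at the top of its segment. Tpm1 takes 46.0 to 55.7% in AT-3 and 13.7 to 17.4% in E0771, where Tpm4 takes 38.4 to 46.1%.

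Across treatments the genes moved by smaller amounts. Within the lines, 25 of 88 member results passed the threshold of an adjusted p of 0.05, 6 of 44 in AT-3 and 19 of 44 in E0771, and no change was larger than 0.61 on the log2 scale. Of all genes, 0 to 13.1% were called across the 11 AT-3 comparisons and 0.217 to 38.6% across the 11 of E0771. More calls in E0771 are thus not particular to the family. Replicates spread more in AT-3, with a coefficient of variation from the common dispersion of 11.6% against 7.07% in E0771. Comparisons against one control group share its 3 libraries and are not independent of each other, within each line.

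**Figure D2:**
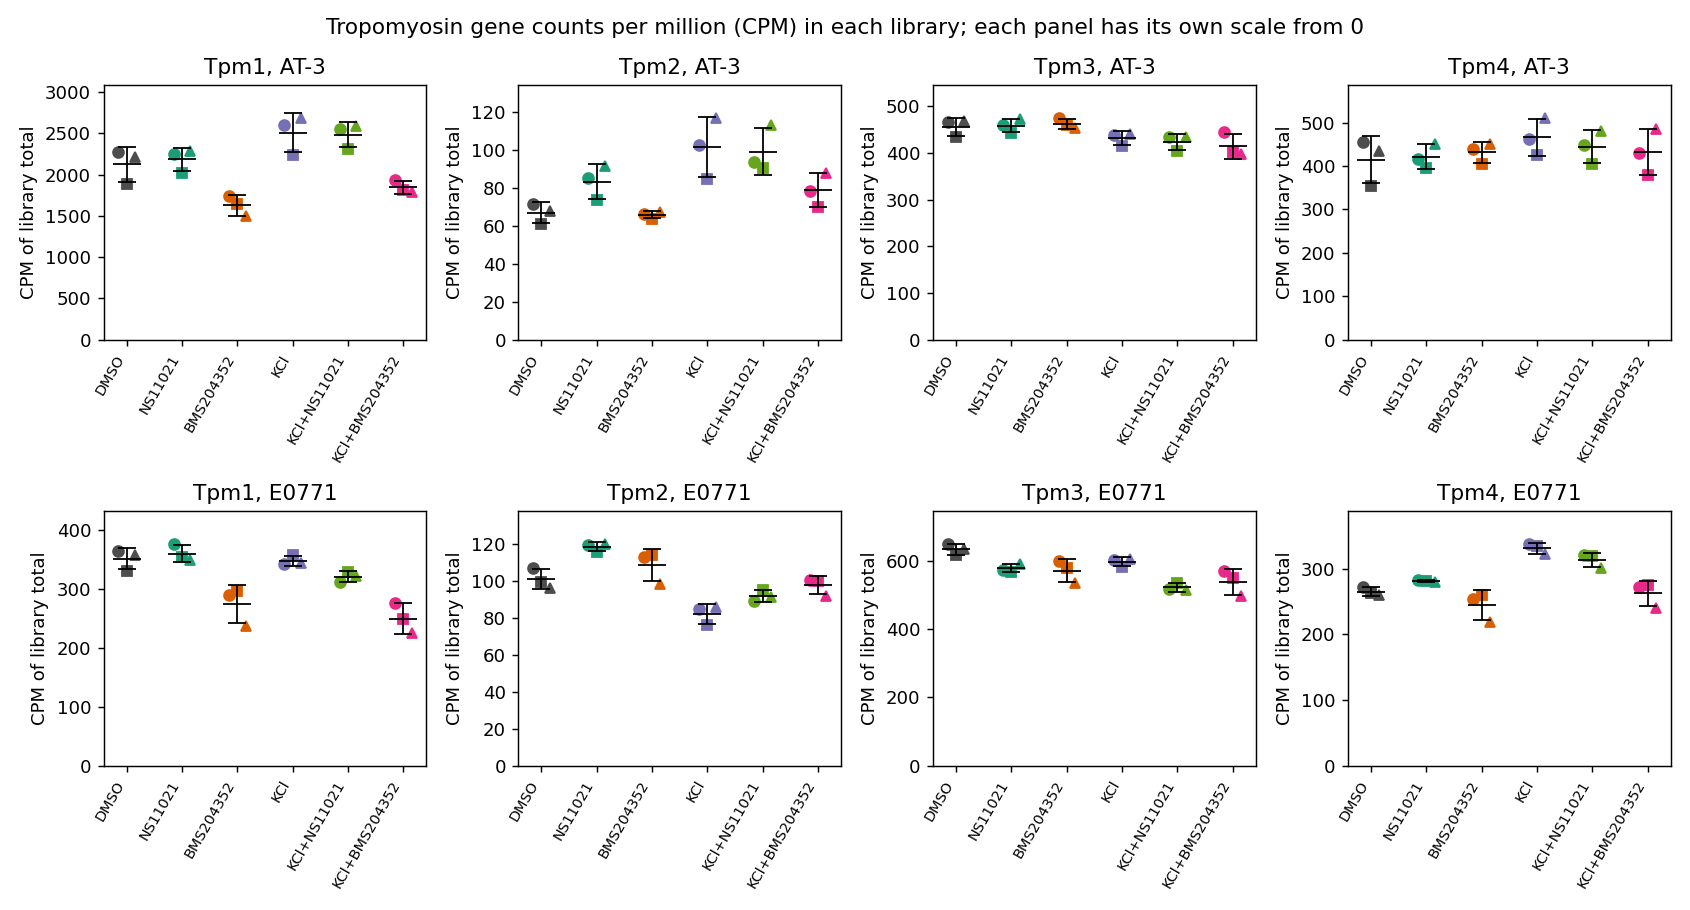
CPM of the library total (y axis, each panel on its own scale from 0) for each tropomyosin gene by treatment. Circles, squares and triangles are replicates 1, 2 and 3, and bars show the mean ± SD of 3 libraries. Tpm1 is lowest in the 2 groups with BMS204352 in both lines, and Tpm2 is high with KCl in AT-3 and low with KCl in E0771.

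Tpm1, the main source of long stress-fibre tropomyosins, fell with BMS204352 in both lines. In E0771 its libraries had 289, 297.1 and 237 CPM with BMS204352 against 365, 331.1 and 357.6 with DMSO, and the groups did not overlap. The change was −0.35 ± 0.08 (log2, 95% interval −0.51 to −0.19, adjusted p = 0.00329). Of all genes tested in that comparison 22.7% were called, and of the members 2 of 4, both lower. Without the 4 set-aside libraries the Tpm1 value was −0.26 ± 0.04 (adjusted p = 2.88e-05). With KCl present the E0771 libraries had 276, 248.1 and 224.6 CPM with BMS204352 and 341.9, 357.9 and 344.8 without it, again with no overlap. Tpm1 was lower by −0.49 ± 0.08 against KCl (adjusted p = 0.000248, all 4 members called, 19.9% of all genes) and by −0.49 ± 0.08 against DMSO (adjusted p = 0.000117, 2 members called, 28.6% of all genes). Both became −0.42 ± 0.04 without the 4 set-aside libraries (adjusted p = 3.23e-09 and 1.29e-09). The mitochondrial share of counts was 0.789 to 1.03% in these KCl+BMS204352 libraries and 0.522 to 0.887% in the other E0771 libraries, and their part in the result was not tested.

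In AT-3 the same comparison gave 1742, 1644 and 1496 CPM of Tpm1 with BMS204352 against 2279, 1886 and 2214 with DMSO. No library overlapped, and the lowest was BMS204352 replicate 3. The change was −0.38 ± 0.08 (95% interval −0.55 to −0.21, adjusted p = 0.0135), the 1 member called where 5.27% of all genes were. The size of the change was −0.32 to −0.38 in every alternative that ended this call. The call was lost without the 4 set-aside libraries (−0.32 ± 0.10, adjusted p = 0.11), with only the libraries of both groups in the fit (adjusted p = 0.169), and without DMSO replicate 1 (0.0654), DMSO replicate 3 (0.0769) or BMS204352 replicate 3 (0.0884). With KCl present Tpm1 fell from 2607, 2240 and 2684 CPM to 1934, 1815 and 1792, by −0.46 ± 0.08 (adjusted p = 0.011), the 1 member called where 1.24% of all genes were. The groups did not overlap. Without the 4 libraries it was −0.44 ± 0.10 (adjusted p = 0.0343), and the call was lost without KCl replicate 1 (0.0529) or 3 (0.0719) or KCl+BMS204352 replicate 2 (0.0533) or 3 (0.0678). Against DMSO the KCl+BMS204352 change of −0.21 ± 0.08 did not pass (adjusted p = 0.0974), where 13.1% of all genes were called. No member did by edgeR or DESeq2 with all libraries and no replicate numbers in the fit, while Tpm1 and Tpm3 had an unadjusted p under 0.05. Tpm1 passed there without DMSO replicate 2 (−0.30, adjusted p = 0.0251). Mitochondrial transcripts were 0.687 to 0.792% of counts in the AT-3 KCl+BMS204352 libraries and 0.490 to 0.608% in the other AT-3 libraries. Their part in these results was not tested.

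The size of the BMS204352 effect on Tpm1 did not differ detectably between lines. The difference was 0.02 ± 0.12 (95% interval −0.22 to 0.25, adjusted p = 1 by edgeR). No member passed that test by edgeR or DESeq2, where 5.01% of all genes did, and Tpm3 had an unadjusted p under 0.05.

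KCl and NS11021 left Tpm1 less changed. With KCl in AT-3 it was at 2607, 2240 and 2684 CPM, overlapping DMSO, with a change of 0.25 ± 0.08 that did not pass (adjusted p = 0.0967). Among fits that left out 1 library, it passed without KCl replicate 2 (0.32, adjusted p = 0.0372). In E0771 KCl gave 0.00 ± 0.08 (95% interval −0.16 to 0.16). NS11021 gave 2250, 2024 and 2285 CPM in AT-3 and 376.4, 353.4 and 349.8 in E0771, with changes of 0.05 ± 0.08 and 0.03 ± 0.08, and both groups overlapped DMSO. With KCl+NS11021 the libraries had 2559, 2311 and 2588 CPM in AT-3 and 311.9, 329 and 322 in E0771, and neither group overlapped DMSO. These were 0.23 ± 0.08 above DMSO in AT-3 (adjusted p = 0.108) and −0.12 ± 0.08 from it in E0771 (adjusted p = 0.252), the latter past the threshold without the 4 set-aside libraries (adjusted p = 0.0133) at the same size.

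The compounds therefore differed in Tpm1 when set against each other at 10 µM and 24 h. NS11021 libraries were higher than BMS204352 libraries by 0.43 ± 0.08 in AT-3 (adjusted p = 0.00745) and by 0.39 ± 0.08 in E0771 (adjusted p = 0.0143). With KCl present the differences were 0.44 ± 0.08 in AT-3 (adjusted p = 0.019) and 0.38 ± 0.08 in E0771 (adjusted p = 0.00726). No libraries overlapped in any of the 4 comparisons. The share of all genes called was 2.94% in AT-3 and 1.76% in E0771 without KCl, and 0.454% and 4.95% with it. In AT-3 Tpm1 was the 1 member called in each, and in E0771 Tpm1 and Tpm4 were. The AT-3 differences without the 4 set-aside libraries were 0.38 (adjusted p = 0.0694) and 0.43 (0.0644), past the threshold in neither, and the E0771 differences 0.29 (3.7e-05) and 0.30 (5.2e-06). Leaving out 1 library also ended calls in AT-3, at differences of 0.38 to 0.43. Without KCl these were NS11021 replicate 3 (0.0584) or BMS204352 replicate 3 (0.0526), and with KCl they were KCl+NS11021 replicate 1 (0.113) or 3 (0.127) or KCl+BMS204352 replicate 2 (0.103) or 3 (0.13). In E0771 without KCl, leaving out NS11021 replicate 1 did so (0.0647). With only the 2 groups in the fit neither comparison without KCl passed (0.118 in AT-3, 0.13 in E0771).

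Tpm2, which encodes beta-tropomyosin, moved in opposite directions with KCl in the 2 lines. In AT-3 it rose from 71.8, 60.9 and 68.0 CPM to 102.9, 85 and 116.8, with no overlap. The change was 0.61 ± 0.12 (95% interval 0.35 to 0.86, adjusted p = 0.00664), a rise of 52.5%, and Tpm2 was the 1 member called where 4.83% of all genes were. In E0771 it fell from 106.6, 99.5 and 96.1 CPM to 84.5, 76.0 and 85.9, also with no overlap, by −0.28 ± 0.06 (95% interval −0.40 to −0.17, adjusted p = 0.000215). There 2 of 4 members were called, 1 in each direction, and 36.4% of all genes. The effect of KCl on Tpm2 was lower in E0771 than in AT-3 by −0.90 ± 0.14 (95% interval −1.19 to −0.62, adjusted p = 5.08e-05), the 1 member called in a test where 9.13% of all genes were. These 3 calls held in every alternative run. Tpm1 (−0.26 ± 0.12, adjusted p = 0.184), Tpm3 (−0.01 ± 0.07) and Tpm4 (0.15 ± 0.13) did not pass that test. The order of the lines changed with it: E0771 had more Tpm2 than AT-3 with DMSO, while with KCl all 3 E0771 libraries were within or below the AT-3 range of 85.0 to 116.8 CPM.

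Tpm2 rose with NS11021 in E0771, to 119.5, 115.7 and 119.9 CPM, all above the DMSO libraries, by 0.23 ± 0.06 (adjusted p = 0.00303). Of the members 2 of 4 were called, 1 in each direction, and 26.3% of all genes. AT-3 libraries with NS11021 had 85.1, 73.5 and 91.5 CPM and did not overlap DMSO either, but the change of 0.33 ± 0.12 did not pass (adjusted p = 0.544). In fits that did not use replicate numbers, no member did there by edgeR or DESeq2. The fit that used them is given with the processing alternatives at the end. In this comparison 0.0745% of all genes were called, and Tpm2 alone had an unadjusted p under 0.05. The effect of NS11021 on Tpm2 differed between lines by −0.11 ± 0.14 (95% interval −0.39 to 0.17, adjusted p = 0.779), and 0 members and 3.99% of all genes passed that test by edgeR, with 0 members by DESeq2 and Tpm3 at an unadjusted p under 0.05.

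With both treatments at once Tpm2 stayed high in AT-3. KCl+NS11021 libraries had 93.9, 90.5 and 113.1 CPM there, above DMSO by 0.58 ± 0.12 (adjusted p = 0.0106), the 1 member called where 5.03% of all genes were. That call was lost without DMSO replicate 2 (0.51, adjusted p = 0.0535) or KCl+NS11021 replicate 3 (0.47, adjusted p = 0.0557). Against KCl alone, KCl+NS11021 changed Tpm2 by −0.03 ± 0.12 in AT-3, where no member passed by edgeR or DESeq2, none had an unadjusted p under 0.05, and 0.0203% of all genes were called. In E0771 KCl+NS11021 gave 88.8, 94.9 and 91.3 CPM, between KCl and DMSO. Its change was −0.12 ± 0.06 from DMSO (adjusted p = 0.0925) and 0.16 ± 0.06 from KCl (adjusted p = 0.0536), and neither passed. Without the 4 set-aside libraries both passed, at −0.12 (adjusted p = 0.0341) and 0.16 (0.0114), and the latter also without KCl replicate 3 (0.19, adjusted p = 0.049).

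BMS204352 alone left Tpm2 at 66.2, 63.9 and 67.6 CPM in AT-3 (−0.01 ± 0.12) and at 112.6, 113.8 and 98.2 in E0771 (0.11 ± 0.06, adjusted p = 0.186). Leaving out E0771 BMS204352 replicate 3, the lowest, the E0771 change was 0.17 and passed (adjusted p = 0.0249). When added to KCl the values again had opposite signs in the lines. Tpm2 was 0.23 ± 0.06 higher than with KCl alone in E0771 (adjusted p = 0.00386), at 100.6, 99.9 and 91.8 CPM, and without the 4 set-aside libraries 0.28 (adjusted p = 0.000132). In AT-3 it had 78.5, 70.0 and 87.9 CPM, a change of −0.38 ± 0.12 from KCl that did not pass in edgeR (adjusted p = 0.134) and passed in DESeq2's Wald test (adjusted p = 0.0454). Whether this effect differed between the lines was not tested. Compared with DMSO, KCl+BMS204352 libraries had Tpm2 changes of 0.23 ± 0.12 in AT-3 (adjusted p = 0.228) and −0.05 ± 0.06 in E0771 (adjusted p = 0.578).

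**Figure D3:**
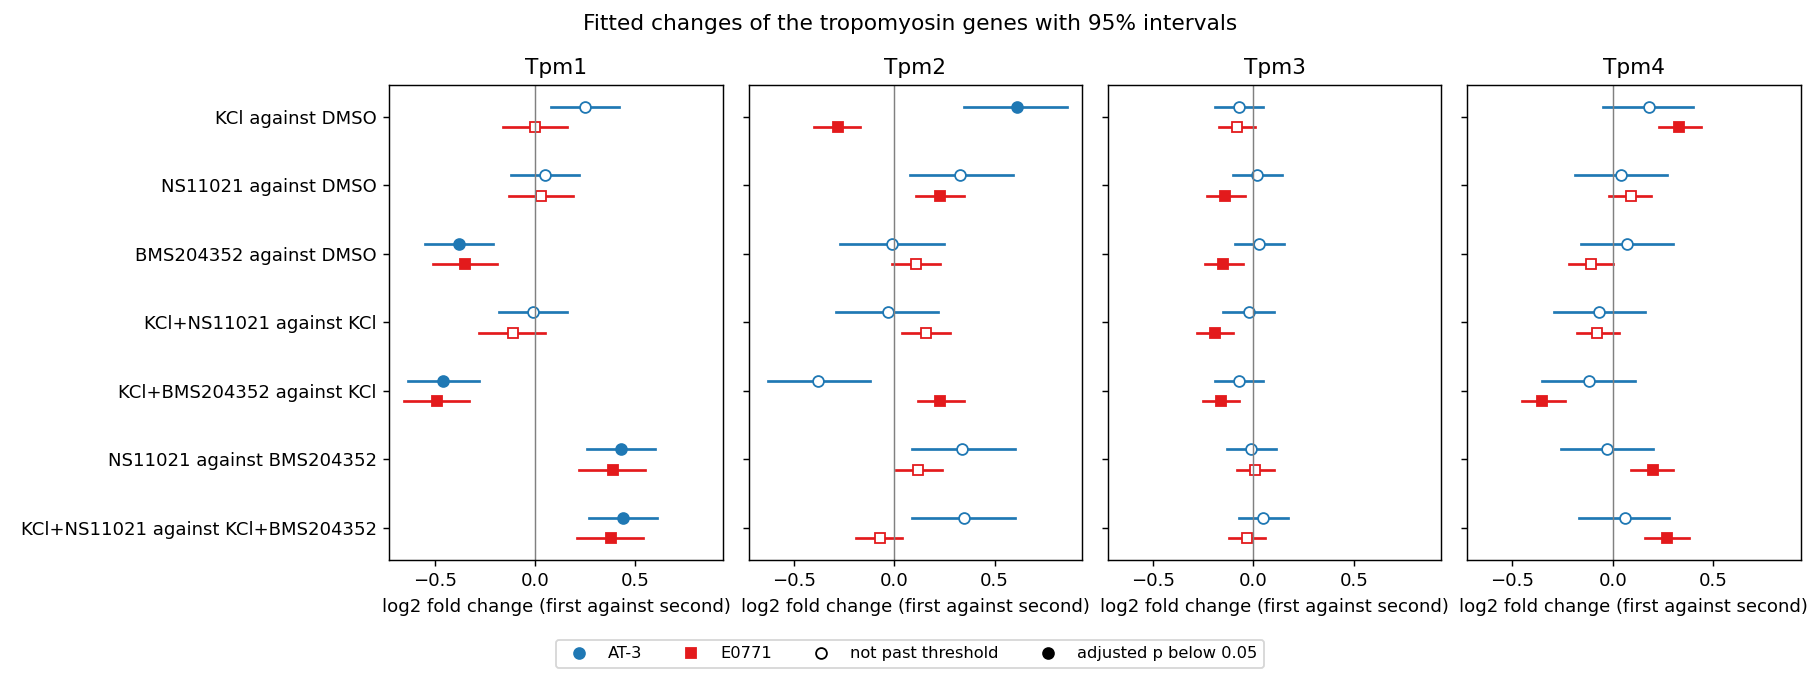
Fitted log2 fold change (x axis) with its 95% interval for each tropomyosin gene in 7 comparisons (rows), AT-3 as blue circles and E0771 as red squares, filled where the adjusted p was below 0.05. Tpm1 is lower with BMS204352 in both lines, and the Tpm2 intervals for KCl lie on opposite sides of 0.

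Tpm3, a main source of short cytoskeletal tropomyosins, was called in no AT-3 comparison and was lower in 6 of the 11 E0771 comparisons. Its AT-3 libraries ran from 396.5 to 473.9 CPM over all treatments, with group means from 414.2 ± 26.8 with KCl+BMS204352 to 462.1 ± 10.8 with BMS204352, and the ranges of neighbouring groups overlapped in all 5 steps of the order. Without KCl+BMS204352 replicate 1, the highest of its group, the AT-3 change of KCl+BMS204352 against DMSO went from −0.14 ± 0.06 (adjusted p = 0.115) to −0.21 and passed (adjusted p = 0.0279). In E0771 the DMSO libraries, at 649.9, 617.5 and 636 CPM, were above every library of the other groups. NS11021 libraries had 574.2, 568.5 and 591.3 CPM (−0.14 ± 0.04, adjusted p = 0.0231) and BMS204352 libraries 601, 580.1 and 534.1 (−0.15 ± 0.04, adjusted p = 0.0174). KCl libraries had 603.3, 582.8 and 606.4 CPM, and their change of −0.08 ± 0.04 did not pass (adjusted p = 0.19), although it did at −0.07 without the 4 set-aside libraries (adjusted p = 0.0411).

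The lowest Tpm3 levels were in the combinations. KCl+NS11021 libraries had 516.3, 536.2 and 514 CPM, lower than DMSO by −0.27 ± 0.04 (adjusted p = 1.41e-05) and lower than KCl by −0.19 ± 0.04 (adjusted p = 0.00294). Of the members 2 of 4 were called against DMSO and 1 of 4 against KCl, beside 38.6% and 17.2% of all genes. KCl+BMS204352 libraries had 570.3, 550.2 and 496.8 CPM, lower than DMSO by −0.24 ± 0.04 (adjusted p = 0.000148) and than KCl by −0.16 ± 0.04 (adjusted p = 0.0105). Without the 4 set-aside libraries the values with BMS204352 were smaller but still passed, at −0.10 against DMSO (adjusted p = 0.0303), and with KCl −0.18 against DMSO (6.09e-05) and −0.10 against KCl (0.0244). Leaving out 1 library ended several of these calls, at changes of −0.10 to −0.14. The NS11021 call was lost without DMSO replicate 1 (0.114) or 3 (0.0707) or NS11021 replicate 1 (0.0767) or 2 (0.0731). The BMS204352 call was lost without DMSO replicate 1 (0.0895) or 3 (0.0539) or BMS204352 replicate 3 (0.103), and with only the libraries of both groups in the fit (0.0512). The call of KCl+BMS204352 against KCl was lost without KCl+BMS204352 replicate 3 (0.109). Both calls of KCl+NS11021 and that of KCl+BMS204352 against DMSO held in every alternative run.

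NS11021 and BMS204352 did not differ detectably in Tpm3, with differences of 0.01 ± 0.04 in E0771 (95% interval −0.08 to 0.10) and −0.01 ± 0.06 in AT-3 (−0.13 to 0.11). With KCl present they were −0.03 ± 0.04 (−0.12 to 0.06) and 0.05 ± 0.06 (−0.07 to 0.17). The near copy Tpm3-rs7 was lower in E0771 too, by −0.37 ± 0.11 with NS11021 (adjusted p = 0.00847), −0.37 ± 0.11 with KCl+NS11021 (adjusted p = 0.00634) and −0.35 ± 0.11 with KCl+BMS204352 against DMSO (adjusted p = 0.013). Its level was 18.96 CPM with DMSO against 634.5 for Tpm3.

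Tpm4, whose product is a short tropomyosin of stress fibres, rose with KCl in E0771. Its libraries went from 272.6, 263 and 260.4 CPM with DMSO to 338.2, 334.5 and 322.5 with KCl, and did not overlap. The change was 0.33 ± 0.05 (95% interval 0.23 to 0.44, adjusted p = 7.85e-06), a rise of 25.9%. With KCl+NS11021 the libraries had 320.6, 320 and 302 CPM, still above all DMSO libraries, by 0.26 ± 0.05 (adjusted p = 0.000224). With KCl+BMS204352 they had 272.6, 275.3 and 241.1, which overlapped DMSO (−0.01 ± 0.05) and lay below all KCl libraries, by −0.35 ± 0.05 (adjusted p = 2.17e-05). That last value was −0.29 ± 0.04 without the 4 set-aside libraries (adjusted p = 1.89e-07). In E0771, then, Tpm4 was higher than DMSO with KCl and with KCl+NS11021 but not with KCl+BMS204352, and the compounds differed from each other under KCl by 0.27 ± 0.05 (adjusted p = 0.00137). These calls held in every alternative run.

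Without KCl the compounds moved Tpm4 less in E0771. NS11021 libraries had 283.7, 281 and 280.4 CPM, all above DMSO (0.09 ± 0.05, adjusted p = 0.246), and passed without the 4 set-aside libraries at the same size (adjusted p = 0.0308). BMS204352 libraries had 254.8, 260.8 and 219.4 CPM (−0.11 ± 0.05, adjusted p = 0.134), which passed without BMS204352 replicate 2 (−0.15, adjusted p = 0.0479) and was −0.04 without the 4 set-aside libraries (adjusted p = 0.563). The compounds differed by 0.20 ± 0.05 (adjusted p = 0.0473), a call lost without the 4 libraries (0.13, adjusted p = 0.0556), with the 2 groups alone in the fit (0.289), and without NS11021 replicate 1 (0.142), 2 (0.117) or 3 (0.0981) or BMS204352 replicate 3 (0.191).

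In AT-3 no Tpm4 comparison passed. Libraries ran from 353.1 CPM in a DMSO library to 510.1 in a KCl library, group means from 414.7 ± 54.4 to 466.4 ± 42.2, and neighbouring groups overlapped in all 5 steps of the order. The KCl change was 0.18 ± 0.11 (95% interval −0.05 to 0.40, adjusted p = 0.447), an interval that holds the E0771 value of 0.33. Within each of the E0771 BMS204352 and KCl+BMS204352 groups, all 4 genes were lowest in replicate 3. In AT-3 replicate 3 of those groups had the lowest Tpm1 and the highest Tpm2 and Tpm4 of their groups.

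Interaction terms asked whether a compound acted differently with KCl than without it, as the effect under KCl minus that without. In AT-3 edgeR called 0% of all genes for either compound, with 299 genes for NS11021 and 533 for BMS204352 at an unadjusted p under 0.05, and DESeq2 called 0 in both. No member passed, and Tpm2 had an unadjusted p under 0.05 for NS11021 (−0.36 ± 0.17) and BMS204352 (−0.37 ± 0.17). In E0771, 0.217% of all genes passed for NS11021 and 1.62% for BMS204352. No member did by edgeR or DESeq2 with all libraries, the filter on low counts and no replicate numbers in the fit. Tpm4 had an unadjusted p under 0.05 in both, with terms of −0.16 ± 0.07 (adjusted p = 0.489) and −0.24 ± 0.07 (adjusted p = 0.106). These terms were −0.17 (adjusted p = 0.0493) and −0.25 (adjusted p = 0.00368) without the 4 set-aside libraries, and without BMS204352 replicate 3 alone the latter was −0.31 (adjusted p = 0.00241). The BMS204352 term for Tpm4 also passed without a filter on low counts (adjusted p = 0.0141).

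Genes whose products work with tropomyosin on actin filaments were counted from 9 lists of 64 genes, of which 61 were tested in AT-3 and 58 in E0771. With KCl, 5 of 61 rose and 0 fell in AT-3 (median log2 0.08, against −0.00 over all genes), and 21 of 58 rose and 5 fell in E0771 (0.07, against −0.01). The background was 4.83% and 36.4% of all genes, so the partner genes were called at 5 of 61 and 26 of 58. With NS11021 the counts were 0 of 61 in AT-3 and 9 higher and 4 lower of 58 in E0771, beside 0.0745% and 26.3% of all genes. With BMS204352 they were 3 higher and 2 lower of 61, and 6 higher and 8 lower of 58, beside 5.27% and 22.7% of all genes.

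Among caldesmon and the calponins, actin-binding proteins that share filaments with tropomyosin, 1 of 4 rose with KCl in each line. It was Cald1, caldesmon, at 0.48 ± 0.12 in AT-3 (adjusted p = 0.032) and 0.37 ± 0.05 in E0771 (adjusted p = 1.38e-07). Its AT-3 call was lost with no filter (adjusted p = 0.089), when DMSO replicate 1 (0.0903) or 2 (0.124) was left out, and when KCl replicate 1 (0.0624) or 3 (0.13) was. Of 7 genes for non-muscle myosin II and its light chains, 1 rose in AT-3, while 4 rose and 1 fell in E0771. The regulatory light chain gene Myl9 rose in AT-3 by 0.65 ± 0.18 (adjusted p = 0.0462) and in E0771 by 1.48 ± 0.23 (adjusted p = 6.41e-06), from 1.944 to 5.373 CPM. The AT-3 call for Myl9 was lost in 7 alternatives, among them those that left out KCl replicate 1 (adjusted p = 0.109) or 3 (0.193) or DMSO replicate 2 (0.159) or 3 (0.094). Myl12a (0.23 ± 0.04) and Myl6 (0.22 ± 0.05) also rose in E0771. Of 5 genes for kinases and a phosphatase that act on that light chain, none was called in AT-3 and 3 rose in E0771: Mylk by 1.48 ± 0.24, Rock1 by 0.29 ± 0.05 and Rock2 by 0.16 ± 0.04.

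Tropomodulins cap the pointed end of filaments by binding tropomyosin. None of 5 tested cap and leiomodin genes was called in AT-3, and 2 of 4 rose in E0771. Tmod1 rose by 0.90 ± 0.25 (adjusted p = 0.00411), from 1.519 to 2.839 CPM. Tmod2 had 0 counts in all 3 E0771 DMSO libraries and 10 to 30 in the KCl libraries, at least 21.6-fold higher against a floor of 3 counts over the DMSO group, while AT-3 DMSO libraries had 37.3 ± 1.56 CPM. Of the formins, which nucleate unbranched filaments, 2 of 13 rose in AT-3, and 5 of 11 rose and 2 fell in E0771. Fmnl3 rose by 0.46 ± 0.06 and 0.41 ± 0.04 and Fmnl2 by 0.34 ± 0.08 and 0.58 ± 0.05 in AT-3 and E0771, and Inf2 by 0.38 ± 0.04 in E0771. The Fmnl2 call in AT-3 (adjusted p = 0.0192) was lost when DMSO replicate 1 (0.0896) or 2 (0.0938), or KCl replicate 1 (0.0609) or 3 (0.0836), was left out.

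The actin genes are near-identical in their coding sequence, so their counts may be split uncertainly. Of 5 tested none was called in AT-3, and in E0771 Acta2 rose by 0.39 ± 0.13 (adjusted p = 0.0365) and Actg1 fell by 0.23 on the log2 scale (SE 0.06, adjusted p = 0.00501). The Acta2 call was lost with no filter (0.0579), and when any DMSO library (0.0926, 0.0757 and 0.0821 for replicates 1 to 3), KCl replicate 2 (0.0617) or KCl replicate 3 (0.125) was left out. Of 4 severing and depolymerizing factors 1 rose in E0771, gelsolin (Gsn), by 0.82 ± 0.05 (adjusted p = 4.23e-13), and none was called in AT-3. Of 9 Arp2/3 genes, which build branched networks that tropomyosin is largely absent from, 0 were called in AT-3 and 1 in E0771, Arpc2 at 0.09 ± 0.04 (adjusted p = 0.0413), a call lost with no filter (0.0956) and without KCl replicate 1 (0.152), 2 (0.056) or 3 (0.053) or DMSO replicate 1 (0.117) or 3 (0.126). Of 9 crosslinkers 1 rose in AT-3, the alpha-actinin Actn4 (0.30 ± 0.06), while 3 rose in E0771, among them Actn4 (0.15 ± 0.03) and fascin, Fscn1 (0.43 ± 0.05), and 1 fell, Tagln2 (−0.30 ± 0.04).

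**Figure D4:**
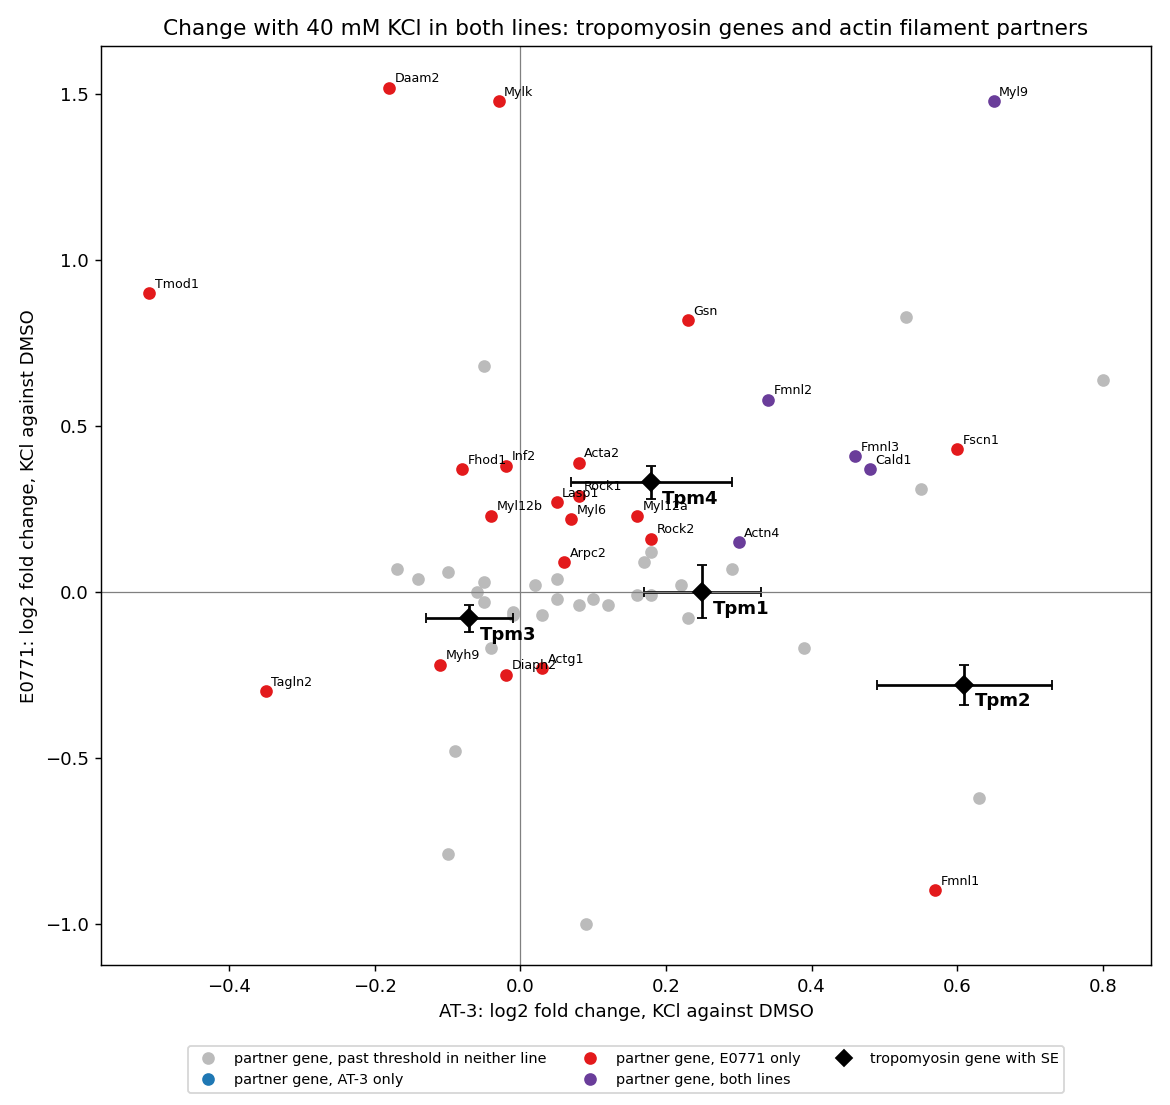
Log2 fold change with KCl in AT-3 (x axis) against that in E0771 (y axis) for the 4 tropomyosin genes (diamonds, with SE) and 57 partner genes tested in both lines (points, coloured by the lines in which they passed; Tmod2 is not drawn). Tpm2 lies at 0.61 and −0.28, and the 5 partner genes called in both lines were higher in both.

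Of the upstream genes, Mrtfa rose with KCl in AT-3 (0.52 ± 0.10, adjusted p = 0.00453) and E0771 (0.35 ± 0.07), and Mrtfb in E0771 (0.18 ± 0.06, adjusted p = 0.0263) but not in AT-3 (−0.03 ± 0.17). Srf did not pass in either line (0.08 ± 0.15 and 0.02 ± 0.06). With BMS204352, when Tpm1 was lower in both lines, Mrtfa was 0.22 ± 0.07 higher in E0771 (adjusted p = 0.0151) and −0.17 ± 0.10 from DMSO in AT-3 (adjusted p = 0.357). In E0771 the BMS204352 libraries had 67.48 to 79.55 CPM of Mrtfa, highest in replicate 3, against 57.4 to 65.75 with DMSO. The Mrtfa values were not recomputed without the 4 set-aside libraries. Kcnma1, which encodes the BK channel, averaged 0.1521 CPM in the AT-3 DMSO group and did not reach the test in E0771.

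The members did not vary as one group. Correlations below are Pearson r of log2 CPM centred within each line, given as a description, since libraries share treatments and replicate structure. In AT-3 (18 libraries) Tpm1 and Tpm2 had r = 0.80 and Tpm2 and Tpm4 0.69, while Tpm3 had r from −0.17 to 0.25 with the other 3. In E0771 (18 libraries) Tpm2 and Tpm4 had r = −0.51, Tpm1 and Tpm2 0.05, and Tpm1 had 0.60 with Tpm3 and 0.59 with Tpm4.

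Genes most like each member were ranked by the same r over 36 libraries among 8350 genes. For Tpm1 they were Ccn4 (0.876), Rnd3 (0.853), Ect2 (0.835), Actb, beta-actin (0.824), and Atg4a (0.821). For Tpm2 they were Nexn, an actin-binding protein gene (0.841), Swap70 (0.832), Nf2 (0.824), Ahcyl1 (0.81) and Pcolce2 (0.797). For Tpm3 they were Arhgdia (0.915), Ywhaz (0.903), Nutf2 (0.877), Psmd7 (0.86) and Pop4 (0.855). For Tpm4 they were Fermt2, an integrin adaptor (0.884), the calponin Cnn2 (0.87), the myosin light chains Myl6 (0.863) and Myl12a (0.857), and Cald1 (0.832). The 20 values without the 4 set-aside libraries ran from 0.731 to 0.919. The lists had no gene in common between members.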

How the data were processed

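Bulk RNA of 36 samples was sequenced. Per the labels' protocols, the kits were Qiagen RNeasy for extraction and NuGen Universal Plus mRNA for libraries. The deposited values are whole-number counts per gene; reads were aligned to GRCm38 with STAR and counted by the authors with featureCounts, per the submitters' processing notes. The sources used here give no versions, annotation or strand. Of counts from 1 to 10, 84.5% were even, so halved counts were also tried.

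Symbols came from GENCODE vM21, and sequences from RefSeq (GRCm38.p6). CPM used library totals. The edgeR 4.0.16 quasi-likelihood test (R 4.3.3, TMM, filterByExpr with a minimum count of 10 and total of 15) used the 18 libraries of a line (14772 genes in AT-3, 13357 in E0771) or all 36 (15969) for line differences, 26 comparisons in all. It was tested on simulated data. P-values were adjusted by Benjamini-Hochberg over all genes. DESeq2 1.42.0 was an alternative. Values after ± are SE for log2 changes and SD for levels. Intervals cover the fitted spread only.

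The members and lists were chosen with earlier results of these data known. Named genes were the members, near copies, Mrtfa, Mrtfb, Srf, Kcnma1, up to 3 called genes with the smallest adjusted p of each partner list per line for KCl, and the 5 genes of most similar pattern. The labels give groups the same replicate numbers without saying what a number shares, and the fits above do not use them.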

Additional observations from a re-analysis of the deposited data

Results flagged for a closer look

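The effect of KCl on Tpm2 differed between the lines by −0.90 ± 0.14 on the log2 scale (E0771 minus AT-3, adjusted p = 5.08e-05, edgeR), and this is listed because the test of the difference itself passed. All 3 KCl libraries were above all 3 DMSO libraries in AT-3 and below them in E0771. No cause was tested.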

How the results depend on the processing

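Each member result was recomputed under 14 alternatives, or 20 for interactions and line differences of an effect: 1548 of 1624 values kept their direction and side of the threshold, 37 lost a call, 39 gained one and 0 reversed. Of values past the threshold in neither fit, 77 changed sign. With replicate numbers as a replicate block, 3 members passed for AT-3 KCl against DMSO, 1 for NS11021 against DMSO, 2 for KCl+NS11021 against DMSO, 3 for KCl+BMS204352 against DMSO, and 2 each for KCl+BMS204352 against KCl and the compounds against each other without and with KCl. In E0771 the replicate block gave 2 for KCl+NS11021 against KCl and 1 for the interaction of KCl and BMS204352. Counts that went from 2 members to 3 are not listed here for single alternatives. These include E0771 BMS204352 against DMSO with the block. Without the 4 set-aside libraries they include E0771 KCl, NS11021 and BMS204352, each against DMSO. The 13 calls that the block gained kept about their size. In AT-3 they were Tpm1 with KCl (0.25, adjusted p = 0.0065), KCl+NS11021 (0.24, 0.00869) and KCl+BMS204352 (−0.20, 0.0129), Tpm2 with NS11021 (0.33, 0.0194) and KCl+BMS204352 (0.23, 0.016), Tpm3 with KCl+BMS204352 (−0.14, 0.027) and Tpm4 with KCl (0.18, 0.0379), each against DMSO, and Tpm2 for KCl+BMS204352 against KCl (−0.37, 0.00171) and for NS11021 against BMS204352 without (0.34, 0.00349) and with KCl (0.35, 0.00494). In E0771 they were Tpm4 with BMS204352 against DMSO (−0.11, 0.042), Tpm2 for KCl+NS11021 against KCl (0.16, 0.0387) and the Tpm4 interaction (−0.23, 0.0239). Deviations of same-numbered libraries had a median correlation of 0.036 in AT-3 (highest 0.34, 3 of 45 pairs above 0.1) and 0.00619 in E0771 (1 of 45), short of the level required of every pair to treat numbers as pairs. Every AT-3 library (18 of 18) and 13 of 18 in E0771 nonetheless correlated best with its own number, a hint from the data and not the design. Without replicate 3 of the BMS204352 and KCl+BMS204352 groups (the 4 set-aside libraries), 0 members passed for AT-3 BMS204352 against DMSO and for NS11021 against BMS204352 in KCl or alone, and in E0771 4 for KCl+NS11021 against DMSO, 3 for KCl+NS11021 against KCl, 1 for NS11021 against BMS204352 and 1 for each interaction. With only the groups compared, 0 passed for AT-3 BMS204352 against DMSO and NS11021 against BMS204352, and in E0771 1 for BMS204352 against DMSO, 4 for KCl+NS11021 against DMSO, 3 for KCl+NS11021 against KCl and 0 for NS11021 against BMS204352. DESeq2 gave 2 for AT-3 KCl+BMS204352 against KCl. No filter gave 2 for E0771 KCl+NS11021 against KCl and 1 for the interaction of KCl and BMS204352. Leaving out 1 library gave 1 to 2 members for AT-3 KCl against DMSO and 0 to 1 for BMS204352, KCl+NS11021 and KCl+BMS204352 against DMSO, KCl+BMS204352 against KCl and both comparisons of the compounds. In E0771 it gave 1 to 2 for NS11021 against DMSO, 1 to 3 for BMS204352 against DMSO, 1 to 2 for KCl+NS11021 against KCl, 0 to 2 for NS11021 against BMS204352 and 0 to 1 for the interaction of KCl and BMS204352. The cause was not tested.

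Shares of the family total in DMSO moved with the gene length used. With median and then longest coding transcripts, Tpm1 had 67.04 and 63.12% in AT-3 and 22.33 and 21.07% in E0771, Tpm2 2.126 and 2.642% and 6.451 and 8.031%, Tpm3 20.76 and 17.55% and 58.19 and 49.28%, and Tpm4 10.07 and 16.68% and 13.03 and 21.63%. Counts over all genes also moved: for AT-3 BMS204352 against DMSO from 779 genes to 10 with only those groups in the fit and 1455 with the replicate block, and for E0771 NS11021 against BMS204352 from 235 to 0 with only those groups. The lowest count of a member in any library was 2539, far above the filter on low counts.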
